A study of Drosophila melanogaster with 15 samples.

Results

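The 6 genes lola, ttk, chinmo, ab, bab1 and bab2 encode Drosophila transcription factors that carry a BTB domain. R-loops, in which an RNA pairs with one DNA strand and displaces the other, were mapped over them by ssDRIP-seq, a method that enriches such hybrids with an antibody and keeps the strand of the DNA it sequences. The 3 peak lists came from cultured S2 cells (a line derived from embryos) and from whole Oregon R embryos aged 2–3 h (called early embryos below) or 14–16 h (late embryos), with no mutation or drug named in the labels. Each list rests on 2 ssDRIP replicates, and each sample type also had 2 inputs and 1 RNase H1-treated ssDRIP sample, which lacks the RNA of the hybrids. A peak was assigned to a gene where it overlapped the span between the outermost transcript ends by at least 1 bp, whatever its strand. By this rule the 6 genes of 17796 annotated genes held 307 of the 80006 peaks: 122 of 28464 in S2 cells, 87 of 22581 in early embryos and 98 of 28961 in late embryos. The replicates are pooled in each list, and the lists give no height, score or depth. Differences between sample types therefore have no replicate error and were not tested. Whole embryos hold many cell types, so fewer cells with an R-loop and fewer R-loops per cell cannot be told apart. A list also depends on the depth and background of its libraries, whose part in any difference between lists was not tested.

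The BTB domain, also called POZ, is a protein surface through which such factors pair with each other and recruit partners. In most of these proteins it sits at the amino end, with zinc fingers that read the DNA at the other end. lola (longitudinals lacking) is needed for axon growth and guidance, and it makes many proteins that share the BTB exons and differ in alternative 3′ exons. ttk (tramtrack) encodes a repressor of neuronal fates, again with alternative zinc-finger ends. chinmo sets the temporal identity of neurons, and ab (abrupt) acts in dendrite branching and motor axon targeting. bab1 and bab2 (bric à brac) are neighbouring paralogs that pattern the limbs, the ovary and abdominal pigmentation. They have a BTB domain but no zinc fingers. All 6 are long genes, between 21.5 and 64.7 kb, with 58.9% to 91.7% of their span outside every annotated exon.

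Stretches with their longest purine run marked are printed first as examples of the sequence under the peaks. Depending on the list, 12 or more A or G in a row lay in 60.2% to 66.7% of the peaks at these genes. Genes of at least 20 kb had somewhat higher shares. Each set holds 1 stretch for each of 5 genes, and no sequence of lola is printed. The first set comes from the widest region that was called in all 3 lists, read on the strand of the peak. Capitals mark the longest run of A and G in that region, with up to 60 bases on each side, and all 5 stretches lie in introns of dm6. They are chr3R:31725648-31725777 on the forward strand for ttk, chr2L:1672192-1672331 on the reverse strand for chinmo, and chr2L:11229803-11229936 on the reverse strand for ab. For bab1 the stretch is chr3L:1062700-1062839 on the reverse strand, and for bab2 it is chr3L:1144796-1144925 on the forward strand.
ttk: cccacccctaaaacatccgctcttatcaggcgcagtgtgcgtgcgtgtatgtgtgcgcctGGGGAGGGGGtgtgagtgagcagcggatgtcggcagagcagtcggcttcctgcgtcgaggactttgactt
chinmo: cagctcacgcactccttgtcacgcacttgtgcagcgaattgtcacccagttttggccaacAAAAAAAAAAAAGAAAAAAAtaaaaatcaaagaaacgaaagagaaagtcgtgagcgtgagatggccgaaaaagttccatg
ab: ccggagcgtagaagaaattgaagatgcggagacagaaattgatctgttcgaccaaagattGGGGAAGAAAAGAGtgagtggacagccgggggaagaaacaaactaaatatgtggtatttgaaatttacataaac
bab1: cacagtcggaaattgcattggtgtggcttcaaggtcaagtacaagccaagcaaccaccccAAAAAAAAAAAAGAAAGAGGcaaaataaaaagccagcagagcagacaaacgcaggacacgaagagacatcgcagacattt
bab2: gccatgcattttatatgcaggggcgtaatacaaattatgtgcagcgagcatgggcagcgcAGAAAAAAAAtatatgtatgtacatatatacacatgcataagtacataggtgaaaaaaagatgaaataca
The same regions also held runs of C and T, whose longest was 11 bases in ttk, 21 in chinmo, 24 in ab, 15 in bab1 and 10 in bab2. These were longer than the purine run in ttk, chinmo and ab, and as long in bab2. In ttk the purine run was 10 bases long with 9 G and 1 A. In bab2 it was 10 bases long with 9 A and 1 G, so both fell short of 12 bases. In chinmo it was 20 bases long with 19 A, and in bab1 it was 20 bases long with 16 A. The bab1 stretch met peaks of both embryo lists but not the S2 peak of the same region, while each of the other 4 stretches met a peak of every list.

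The second set, chosen after the values were seen to show the extremes, is the longest A and G run in any peak of the gene, with up to 30 bases on each side inside the peak, and all 5 lie in introns. They are chr3R:31715662-31715745 (forward) for ttk, chr2L:1659380-1659468 (forward) for chinmo and chr2L:11215124-11215183 (reverse) for ab. Those of the paralogs are chr3L:1074167-1074261 (reverse) for bab1 and chr3L:1169592-1169675 (forward) for bab2.
ttk: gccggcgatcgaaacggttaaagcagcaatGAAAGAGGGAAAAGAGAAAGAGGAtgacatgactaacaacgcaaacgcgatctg
chinmo: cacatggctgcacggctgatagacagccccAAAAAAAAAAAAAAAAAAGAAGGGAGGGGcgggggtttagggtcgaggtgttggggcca
ab: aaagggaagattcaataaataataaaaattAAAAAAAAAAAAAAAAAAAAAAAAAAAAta
bab1: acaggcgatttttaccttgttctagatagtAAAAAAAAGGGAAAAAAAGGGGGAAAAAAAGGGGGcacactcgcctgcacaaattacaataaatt
bab2: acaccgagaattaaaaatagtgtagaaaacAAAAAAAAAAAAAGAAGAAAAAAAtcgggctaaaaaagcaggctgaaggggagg
The ab run was 28 bases of A alone, at the edge of peaks of both embryo lists. The bab1 run of 35 bases, with 22 A and 13 G in alternating blocks, lay in the first intron and met peaks of S2 cells and late embryos. The ttk run of 24 bases was called in S2 cells alone, and the chinmo run of 29 bases in late embryos alone. The bab2 run of 24 bases, of which 22 were A, met peaks of S2 cells and early embryos.

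Every gene carried R-loop peaks in every list. A peak is called own-strand here where its strand letter is that of the gene, which the study counts as sense, and other-strand otherwise. All 6 genes had at least 1 own-strand peak in each list, against 26.9% of all genes in S2 cells, 23.4% in early embryos and 21.8% in late embryos. Long genes have room for more peaks, and among the 1045 genes of at least 20 kb the same share was 90.9%, 93.0% and 95.3%. Other-strand peaks occurred at 6, 5 and 6 of the 6 genes in S2 cells, early embryos and late embryos, against 89.5%, 91.3% and 94.9% of the long genes. Holding a peak thus did not set these genes apart from genes of their length, and the amount and place of the peaks are described instead.

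S2 cells had the most peaks over the 6 genes, with 66 on the own strand and 56 on the other. The early embryos had 55 own-strand and 32 other-strand peaks, and the late embryos had 52 and 46. Per 10 kb of gene this was 2.29 own-strand peaks in S2 cells, 1.91 in early embryos and 1.80 in late embryos. Over all long genes the figures were 1.18, 1.05 and 1.47, so the summed density of the 6 genes was the higher in each list. The order of the lists differed, since the long genes had their highest density in late embryos. Not every gene exceeded the long-gene density. ab lay below it in S2 cells (0.992) and late embryos (1.19). bab2 lay below it in early embryos (0.814) and late embryos (1.09), and ttk in late embryos (1.39). lola, chinmo and bab1 lay above it in every list. Own-strand peaks were 54.1% of the peaks in S2 cells (95% Wilson interval 45.3 to 62.7), 63.2% in early embryos (52.7 to 72.6) and 53.1% in late embryos (43.3 to 62.6). The intervals cover counting error alone, and the share over the long genes was 49.3%, 51.7% and 51.5%. In the early list the long-gene share fell below the interval of the 6 genes, and in the other lists it lay inside. Peaks of the same gene are not independent, so the intervals can be too narrow. No difference from long genes is drawn from them.

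Own-strand peaks covered 13.4% of the summed length of 288 kb in S2 cells, 9.56% in early embryos and 9.42% in late embryos. Other-strand peaks covered 10.7%, 5.12% and 7.0%. Over the summed length of the long genes, own-strand peaks covered 6.11%, 4.93% and 6.62%. Other-strand peaks covered 6.24%, 4.62% and 6.21% of that length, so in both embryo lists the gap on this strand was small. Taken gene by gene, the median long gene had 4.67%, 3.99% and 5.55% of its length under own-strand peaks. lola and chinmo, followed by ttk and bab1, exceeded that median in every list, while ab lay near it and bab2 crossed it, above in S2 cells and below in both embryo lists.

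**Figure D1:**
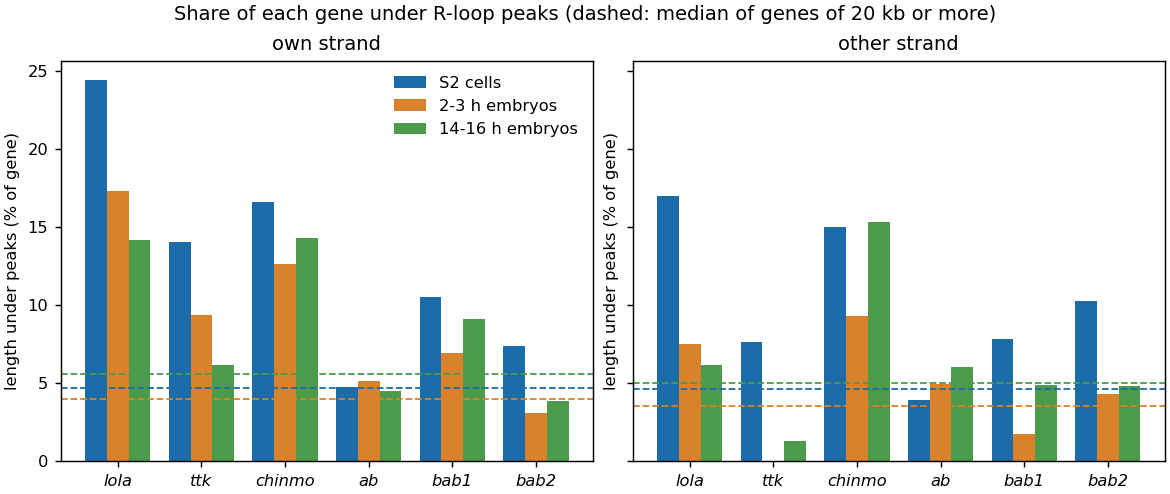
Share of each gene's length (y axis, percent) under own-strand peaks (left) and other-strand peaks (right), with 1 bar for each list and dashed lines at the median of the 1045 genes of at least 20 kb. There are no error bars because the lists pool their replicates; lola is highest on the own strand in S2 cells at 24.4%, and ttk has no other-strand peak in early embryos.

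**Figure D2:**
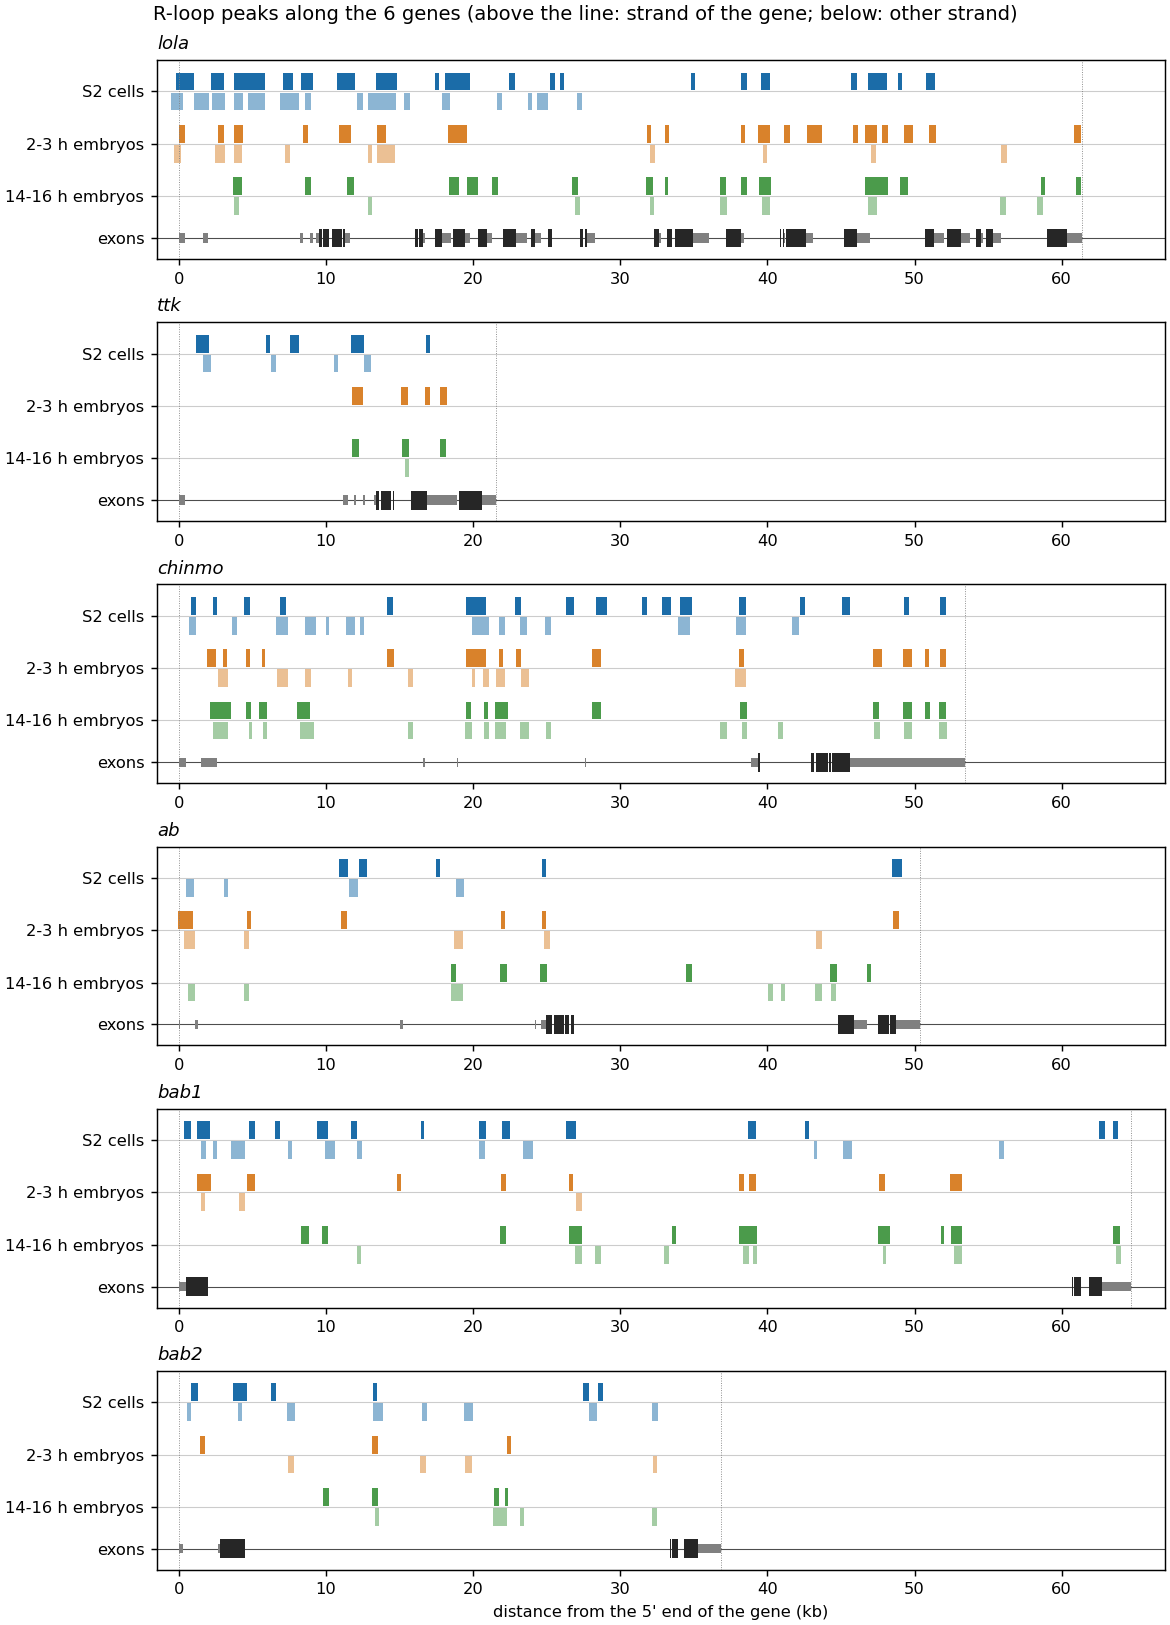
Peaks along each gene, drawn from its 5′ end (x axis, kb), with own-strand peaks above and other-strand peaks below the line of each list, and exons at the bottom (tall and black where coding, low and grey where untranslated). The S2 peaks of lola crowd the first 10 kb on both strands, and 12 of the 45 regions of chinmo hold peaks of all 3 lists.

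lola carried the most peaks of the 6 genes. The reverse-strand gene spans chromosome 2R between 10481894 and 10543291 (Dmel_CG12052, FBgn0283521), with 25 transcripts from 4 start sites. Own-strand peaks numbered 19 in S2 cells, 19 in early embryos and 16 in late embryos, and other-strand peaks 15, 10 and 9. The own-strand peaks covered 24.4%, 17.3% and 14.1% of the gene, which placed it at rank 21, 13 and 84 of the 1045 long genes. Other-strand cover was 17.0%, 7.48% and 6.12%.

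The lists differed most at the 5′ end of lola. The 9.54 kb between its first start site and its first coding base, here called the leader, was under own-strand peaks for 56.5% of its length in S2 cells, 18.3% in early embryos and 10.7% in late embryos. On the other strand the figures were 58.3%, 18.2% and 3.61%. Among 571 long genes with a leader of at least 5 kb, only 1 had more own-strand cover in S2 cells, and lola was likewise second on the other strand. In late embryos it ranked 111th and 376th. In S2 cells 5 own-strand and 6 other-strand peaks were centred in this stretch, among them the widest own-strand S2 peak of the gene (2077 bp, 10537477 to 10539553). At the outermost start site S2 cells had a peak of 1182 bp, and early embryos had one of 374 bp that ended 16 bp short of the site. No own-strand peak lay there in late embryos.

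**Figure D3:**
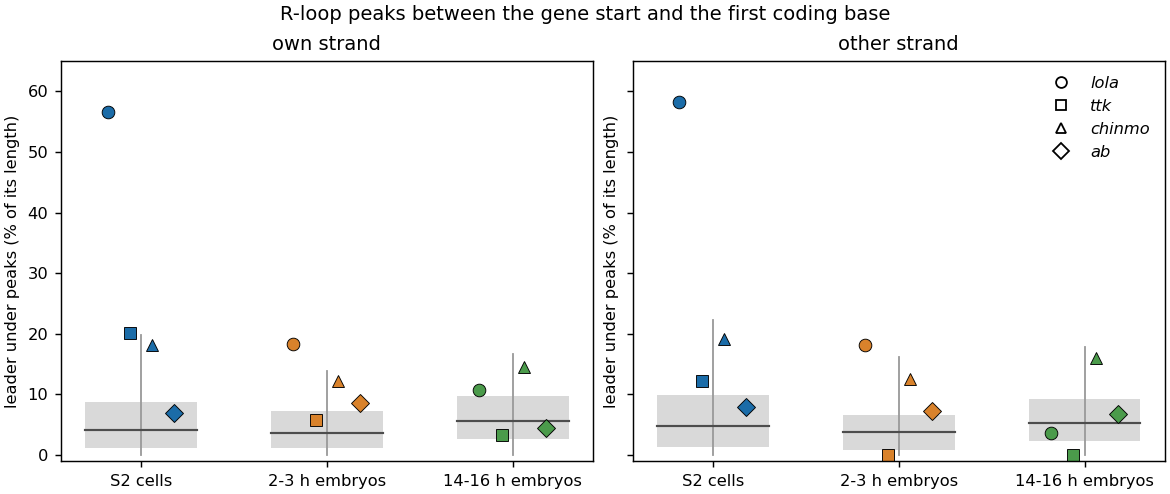
Percent of the leader (gene start to first coding base) under own-strand (left) and other-strand (right) peaks in each list, for the 4 genes whose leader is at least 5 kb. The grey box spans the 25th to 75th percentile of 571 long genes, the line in it their median and the thin line their 5th to 95th percentile; lola in S2 cells stands far above the thin line on both strands.

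The leaders of ttk and chinmo also had their highest own-strand cover in S2 cells, and that of ab in early embryos. Own-strand cover was 20.1%, 5.68% and 3.3% in the ttk leader, 18.2%, 12.2% and 14.5% in that of chinmo and 6.88%, 8.55% and 4.49% in that of ab, in the order S2 cells, early and late embryos. The medians of the 571 leaders were 4.1%, 3.69% and 5.54%.

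Further along lola, the coding span of 50.8 kb was covered to 18.9%, 16.6% and 14.4% by own-strand peaks, a smaller range between the lists. It holds the alternative zinc-finger ends, and peaks of all 3 lists recurred there. The widest own-strand region shared by all lists (10522958 to 10525177, 2220 bp) overlapped exons of 3 of the 25 transcripts. Its peaks summed to 1654 bp in S2 cells, 1272 bp in early embryos and 1369 bp in late embryos. A region of 1543 bp at 10495088 to 10496630 overlapped an exon of 1 transcript and held the widest own-strand peak of late embryos, 1513 bp. The region at 10531328 to 10532559 was the one that overlapped an exon of all 25 transcripts, and its peaks measured 1232, 816 and 502 bp. In the leader, the shared region at 10537477 to 10539600 shrank from 2077 bp in S2 cells to 642 bp in early embryos and 593 bp in late embryos.

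Some transcript 3′ ends lay under own-strand peaks. Of the 22 distinct 3′ ends of lola, 5 lay in an own-strand peak in S2 cells and 7 in each embryo list. The end at 10482207 was among them, where peaks of 441 bp in early embryos and 316 bp in late embryos had no counterpart in S2 cells. The span of pre-lola-G, a separately annotated segment of the same locus, overlapped these peaks on the same strand. No other-strand peak of S2 cells was centred beyond 44.3% of the gene. Of the other-strand centres inside the gene, 3 of 9 in early embryos and 5 of 9 in late embryos lay in the last 2 of its 5 equal parts. One of the S2 other-strand peaks, of 970 bp, also overlapped asRNA:CR45135, an antisense RNA gene, so its strand has an annotated transcript. The widest other-strand peaks were 1908 bp in S2 cells, 1225 bp in early embryos and 667 bp in late embryos. The first 2 belong to one intronic region, 10528518 to 10530450.

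ttk, the shortest of the 6, spans chromosome 3R between 31713867 and 31735392 on the forward strand (Dmel_CG1856, FBgn0003870) and has 8 transcripts from 4 start sites. It had 5, 4 and 3 own-strand peaks in S2 cells, early embryos and late embryos, and 4, 0 and 1 other-strand peaks. Own-strand cover was 14.0%, 9.33% and 6.12% of the gene. One region was common to all lists, 31725590 to 31726453, over the start site at 31725780, which was inside the peak in every list. Its peaks measured 864 bp in S2 cells, 763 bp in early embryos and 443 bp in late embryos. The S2 peak reached the start site at 31726402, the early peak ended 1 bp short of it and the late peak 302 bp short.

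Of the 12 regions of ttk, 7 were held by S2 cells alone, 2 by both embryo lists and 1 by late embryos alone. Regions of a single list made up 66.7% (39.1 to 86.2), against 58.9% at long genes, whose share lay inside that interval. S2 cells alone held 58.3% (32.0 to 80.7) against 24.6%, and both embryo lists 16.7% against 13.8%. S2 cells and early embryos shared a second own-strand region, 31730619 to 31730954, with peaks of 310 and 320 bp centred in a 3′ untranslated exon. Upstream of the coding exons, the 13.4 kb leader held 4 own-strand and 4 other-strand peaks in S2 cells, but 1 and 0 in each embryo list. The widest S2 peaks of both strands lay in an intron near its start, 919 bp own-strand and 543 bp other-strand, and overlapped each other. In the 7.21 kb coding span own-strand cover was 4.30% in S2 cells, 17.3% in early embryos and 12.1% in late embryos. A peak of 454 bp in early embryos and 473 bp in late embryos lay in an intron there, and the only other-strand embryo peak, 271 bp in late embryos, lay within the same stretch.

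Of the 6 genes, chinmo had the highest share of regions held by all lists. It spans chromosome 2L between 1651258 and 1704682 on the forward strand (Dmel_CG31666, FBgn0086758), with 6 transcripts from 2 start sites. Own-strand peaks numbered 17, 14 and 13, and other-strand peaks 14, 10 and 16. Own-strand cover was 16.6%, 12.6% and 14.3%, and other-strand cover 15%, 9.28% and 15.3%. Of its 45 regions, formed by joining same-strand peaks of the lists that overlap, 12 were held by all 3 lists, which is 26.7% (16.0 to 41.0) against 14.2% of the 24419 regions at long genes. A single list held 22 of the 45, which is 48.9% against 58.9% at long genes. Of these, 14 were held by S2 cells, 8 by late embryos and 0 by early embryos.

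The leader of chinmo, 39.4 kb of mostly intron, held most of these peaks, 26 of 31 in S2 cells. At 2 places in it both strands were called in every list. One was 1689358 to 1689864 on the own strand and 1689058 to 1689891 on the other. The wider one was 1670742 to 1672230 on the own strand and 1670702 to 1672356 on the other. Its own-strand peaks measured 1353 bp in S2 cells, 1365 bp in early embryos and 618 bp, in 2 pieces, in late embryos. The widest own-strand region, 1653182 to 1654777, was widest in late embryos, with 257 bp in S2 cells, 866 bp in early embryos and 1435 bp in late embryos. It overlapped exons of 4 of the 6 transcripts, and the widest other-strand peak of late embryos, 1066 bp, lay opposite. An other-strand region at 1659452 to 1660592 held 771, 416 and 989 bp in the same order. The widest other-strand peaks of S2 cells and early embryos were 1203 bp and 763 bp.

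The 3′ end of chinmo had more peaks in embryos than in S2 cells. Beyond the last coding base, own-strand peaks covered 10.2% of 7.83 kb in S2 cells, 24.8% in early embryos and 24.5% in late embryos, with 2, 4 and 4 peaks. The 2 places called in S2 cells, near 92.6% and 97.2% of the gene, were called in both embryo lists too. Other-strand peaks occurred there in late embryos alone, where 3 of them covered 20.1% of the stretch. All 3 lay opposite own-strand peaks. Only 1 of the 6 transcripts has an exon over the 2 own-strand regions of this end that all 3 lists held. The region at 1698426 to 1699081, shared by the embryo lists, overlapped exons of 5. In the 6.22 kb coding span, own-strand peaks covered 14.7% in S2 cells and none in either embryo list.

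ab had the lowest peak density of the 6 genes in S2 cells on both strands, 0.992 own-strand and 0.794 other-strand peaks per 10 kb. In embryos this was not so, with 1.19 own-strand peaks per 10 kb in each embryo list beside 0.814 and 1.09 for bab2. The gene spans chromosome 2L between 11210678 and 11261080 on the forward strand (Dmel_CG43860, FBgn0264442), with 5 transcripts from 3 start sites. Own-strand peaks numbered 5, 6 and 6 and covered 4.71%, 5.11% and 4.48% of the gene, and other-strand peaks numbered 4, 5 and 7 and covered 3.91%, 4.95% and 6.03%. The outermost start site lay in an own-strand peak in early embryos alone, and that peak, of 993 bp, was the widest at the gene. On the other strand a peak just inside the gene was called in every list, with 555 bp in S2 cells, 756 bp in early embryos and 508 bp in late embryos.

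Another 2 regions of ab were held by all lists. An own-strand region at 11235243 to 11235684, over the exon that holds the first coding base and that all 5 transcripts share, measured 271, 289 and 442 bp. An other-strand region in an intron, 11229168 to 11230079, measured 548, 616 and 830 bp, and the 830-bp peak was the widest other-strand peak in late embryos. In S2 cells the widest peaks were 651 bp own-strand, at the 3′ end, and 608 bp other-strand, in the leader. The widest own-strand peak in late embryos was 465 bp. In the coding span, 3 own-strand and 4 other-strand peaks of late embryos were centred, against 0 and 0 in S2 cells and 0 and 2 in early embryos.

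bab1 and bab2 lie 39.3 kb apart on the reverse strand of chromosome 3L. bab1 (Dmel_CG9097, FBgn0004870) runs from 1036369 to 1101089 with 4 transcripts and 1 start site, and bab2 (Dmel_CG9102, FBgn0025525) from 1140429 to 1177276 with 2 transcripts and 1 start site. bab1 had 14, 9 and 10 own-strand and 11, 3 and 9 other-strand peaks in S2 cells, early embryos and late embryos. bab2 had 6, 3 and 4 own-strand and 8, 4 and 4 other-strand peaks. Own-strand cover was 10.5%, 6.92% and 9.09% for bab1 and 7.39%, 3.04% and 3.84% for bab2. Other-strand cover was 7.81%, 1.73% and 4.87% for bab1 and 10.3%, 4.31% and 4.81% for bab2. In both genes the lowest value of each strand was that of early embryos.

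The first coding exon of each gene was under peaks in part of the lists. At bab1 a peak of 897 bp in S2 cells and one of 958 bp in early embryos (1098918 to 1099875) lay over the 3′ part of this exon and were the widest own-strand peaks of the gene in those lists. Other-strand peaks of 299 bp in S2 cells and 272 bp in early embryos lay within them. At bab2 the widest own-strand peak of S2 cells, 930 bp at 1172651 to 1173580, was also centred in the first coding exon, with an other-strand peak of 295 bp inside it. No peak of late embryos was centred in either exon. The GC content of these own-strand peaks was 59.4% and 58.8% at bab1 and 60.9% at bab2. The medians over the peaks of the 6 genes in the 3 lists, most of them intronic, were 42.2%, 38.9% and 36.0%. Such values were not particular to bab1 and bab2. Own-strand S2 peaks centred in coding exons of lola ranged from 42.2% to 62.9%, and the coding-exon peak of ab in early embryos had 60.4%. No peak of either strand reached the start site of bab1 or bab2 in any list.

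The 3 regions of bab1 held by all lists lay in its introns on the own strand. The widest, 1061767 to 1063000, measured 538 bp in S2 cells, 760 bp in early embryos and 1234 bp in late embryos. The region at 1073719 to 1074759 measured 666, 275 and 886 bp, and that at 1078622 to 1079248 measured 539, 382 and 418 bp. The widest other-strand peaks of bab1 were 958, 449 and 518 bp in the order of the lists. bab2 had 2 such regions, both intronic. On the own strand 1163751 to 1164188 measured 313, 420 and 423 bp, and these were the widest own-strand peaks of both embryo lists. On the other strand 1144684 to 1145137 measured 454, 333 and 307 bp. The widest other-strand peaks of bab2, 731 bp in S2 cells, 495 bp in early embryos and 944 bp in late embryos, fell at 3 different places.

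The place of the peaks along the genes differed between the sample types. Each gene was divided into 5 equal parts from 5′ to 3′. In S2 cells 30.3% of the own-strand peak centres and 40% of the other-strand centres lay in the first part, and 10.6% and 3.64% in the last. The long genes had 19.7% and 20.9% in the first part and 21.3% and 15.9% in the last. In early embryos the 6 genes had 25.5% and 32.3% in the first part and 18.2% and 9.68% in the last, and the long genes 20.2% and 22.3% in the first and 21.9% and 14.7% in the last. In late embryos the 6 genes had 17.3% and 17.4% in the first part and 25% and 23.9% in the last, beside 21.4% and 21.8%, and 19.8% and 15.8%, at long genes. lola gave 6 of the 20 own-strand and 6 of the 22 other-strand S2 centres in the first part, and bab1 gave 6 and 6. chinmo, ttk, bab2 and ab gave the remaining 8 and 10.

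**Figure D4:**
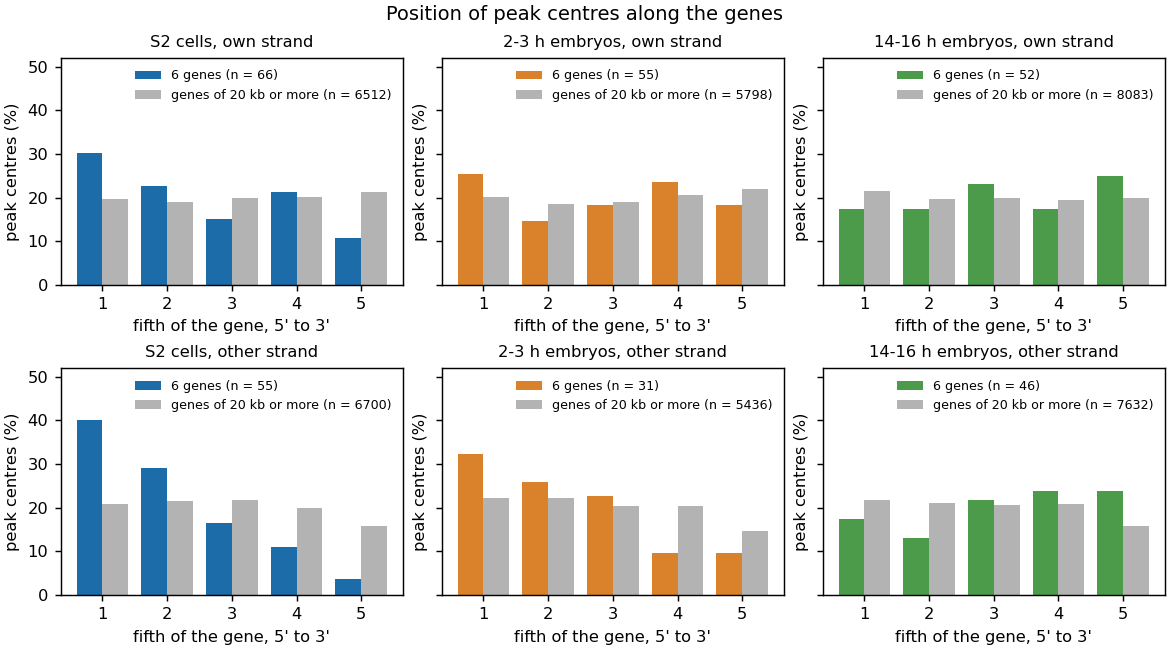
Percent of peak centres (y axis) in each of 5 equal parts of the gene from 5′ to 3′ (x axis), on the own strand (top) and the other strand (bottom), for the 6 genes in colour and for genes of at least 20 kb in grey, with n the number of centres. The S2 bars of the 6 genes fall from the first part to the last on the other strand, from 40% to 3.64%, while the late bars do not.

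Some start sites and 3′ ends lay inside peaks. Of the 15 distinct start sites of the 6 genes, 4 lay in an own-strand peak in S2 cells, 2 in early embryos and 2 in late embryos, and 3, 1 and 0 in an other-strand peak. All belonged to lola, ttk or ab. Within 500 bp of the site, an own-strand peak was present at 9, 8 and 5 of the 15. At the 2458 start sites of long genes, 6.18%, 6.63% and 8.34% lay in an own-strand peak, and 19.7%, 20.4% and 25.3% had one within 500 bp. Of the 32 distinct 3′ ends, 5, 8 and 9 lay in an own-strand peak, and 7, 11 and 11 had one within 500 bp. Of the 2143 ends of long genes, 8.45%, 12.8% and 20.2% lay in an own-strand peak. Within 500 bp the share was 18.9%, 23.8% and 33.6% at long genes, beside 21.9%, 34.4% and 34.4% at the 6 genes. Besides ends of lola, those of the 6 genes in an own-strand peak were 1 of chinmo and 1 of ab. The chinmo end at 1698617, shared by 4 transcripts, was so in both embryo lists, and the ab end at 11257466 in late embryos. Most peak centres were in introns, 78.7% in S2 cells (70.6 to 85.0), 74.7% in early embryos (64.7 to 82.7) and 83.7% in late embryos (75.1 to 89.7), against 84.3%, 83.0% and 86.6% at long genes. The long-gene share lay above the interval in early embryos, but peaks of the same gene are not independent and no difference is drawn from it. Coding exons held 9.02% of the centres in S2 cells and 9.20% in early embryos but 1.02% in late embryos, and at long genes 6.10%, 5.15% and 1.34%. Centres in 3′ untranslated exons made up 9.02%, 11.5% and 12.2%, and at long genes 4.59%, 6.0% and 6.74%.

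Peaks of both strands often lay over each other. In S2 cells 35.2% of the peaks at the 6 genes (27.3 to 44.1) overlapped a peak of the opposite strand, in early embryos 37.9% (28.5 to 48.4) and in late embryos 59.2% (49.3 to 68.4). At long genes the share was 25.9%, 27.4% and 60.2%. The long-gene share lay below the intervals in the first 2 lists and inside the third. Both peaks of an overlapping pair are counted, so the peaks are not independent and these intervals are too narrow. No difference from long genes is drawn from them. Among the 6 genes chinmo had the highest share in late embryos, 22 of 29 peaks, and lola in S2 cells, 15 of 34. None of the 9 S2 peaks of ab lay over another (upper limit 29.9%).

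Taking both strands, the 6 genes gave 187 joined regions. Of these 31 were held by all 3 lists, 16.6% (11.9 to 22.6) against 14.2% at long genes, and 106 by a single list, 63 of them by S2 cells, 7 by early embryos and 36 by late embryos. Regions of a single list were 56.7% here and 58.9% at long genes. S2 cells alone held 33.7% (27.3 to 40.7) against 24.6% at long genes, and late embryos alone held 19.3% (14.2 to 25.5) against 28.1%. The share held by all lists depended on the rule. It was 8.64% where a reciprocal overlap of 50% was asked for, 9.92% with the wider peaks alone and 9.20% without peaks called on both strands, and the long genes then had 9.22%, 9.23% and 8.85%. S2 cells shared 22 regions with early embryos alone and 6 with late embryos alone, and the embryo lists shared 22 with each other alone. In that order these were 11.8%, 3.21% and 11.8% of the regions, beside 8.77%, 4.33% and 13.8% at long genes. Own-strand regions were held by all lists in 21 of 99 cases and other-strand regions in 10 of 88, a split not made at long genes. lola held 10 of the 31, chinmo 12, ab and bab1 3 each, bab2 2 and ttk 1.

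A purine tract was defined as 12 or more A or G in a row on the strand of the peak, and a polyadenine tract as 8 or more A. Purine tracts lay in 64.8% of the peaks at the 6 genes in S2 cells (55.9 to 72.7), 66.7% in early embryos (56.2 to 75.7) and 60.2% in late embryos (50.3 to 69.3). The complement, 12 or more C or T, lay in 23.8%, 14.9% and 27.6%. At long genes purine tracts lay in 67.6%, 71.0% and 63.9% of the peaks, inside the intervals. Polyadenine tracts lay in 37.7% of the S2 peaks (29.6 to 46.6), 65.5% of the early peaks (55.1 to 74.7) and 67.3% of the late peaks (57.6 to 75.8), and 8 or more T in 17.2%, 12.6% and 28.6%. The long genes had polyadenine tracts in 38.9%, 63.1% and 70.8%, each inside the interval of the 6 genes. Every one of the 6 genes had a purine run of at least 24 bases in some peak, and the longest, 35 bases, was the bab1 run printed above. The widest other-strand peak of bab2 in late embryos held 23 A in a row.

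**Figure D5:**
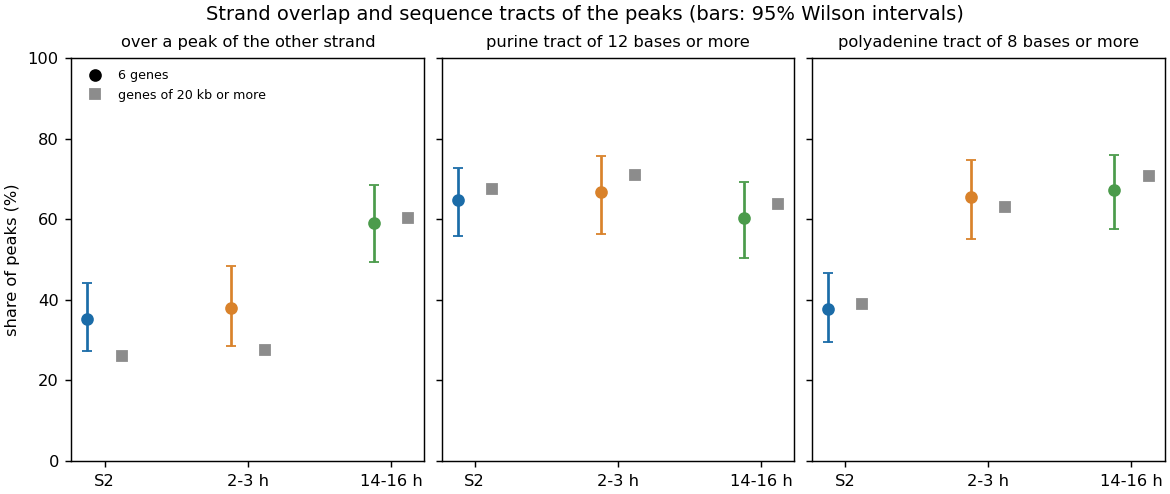
Share of peaks (y axis, percent) that overlap a peak of the other strand, hold a purine tract or hold a polyadenine tract, by list, for the 6 genes (circles) and for genes of at least 20 kb (squares), with 95% Wilson intervals as bars. The polyadenine share of the 6 genes is 37.7% in S2 cells and 65.5% and 67.3% in the embryo lists, beside 38.9%, 63.1% and 70.8% at long genes. For the overlap of strands both peaks of a pair are counted, so those bars are too narrow. Peaks of the same gene are not independent, so the other bars can be too narrow as well.

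The 9 other BTB genes examined were Trl, psq, br, fru, mod(mdg4), lolal, rib, Cp190 and ken. An own-strand peak was present at 6 in S2 cells, 8 in early embryos and 7 in late embryos. The share was 26.9%, 23.4% and 21.8% of all genes, and 90.9%, 93.0% and 95.3% of genes of at least 20 kb. An other-strand peak was present at 6 in each list, against 89.5%, 91.3% and 94.9% of those long genes. That share was not computed over all genes. Of the 9, only psq, br and fru reach 20 kb, so the counts were not read as a trait of BTB genes. fru, which directs male courtship circuits, had the most, 59 own-strand and 50 other-strand peaks over the 3 lists, on a longer gene than any of the 6. psq followed with 39 and 29, and mod(mdg4), which takes part in insulator complexes, had 0 and 1. At Trl, which encodes GAGA factor, own-strand cover was 4.96%, 20.9% and 10.6%, so its highest value was in early embryos.

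The genes of at least 10 kb whose cover was most like that of each member were found by the Euclidean distance over 6 values, the covered percent of each strand in each list. Among 2040 genes these were atos for lola (distance 6.12 percentage points), CG7367 for ttk (3.28), scrib for chinmo (3.8), Reck for ab (2.19), dpr17 for bab1 (2.52) and MRP for bab2 (1.80). The atos values on the own strand were 22.9%, 11.9% and 14.6%, beside 24.4%, 17.3% and 14.1% for lola. No member was the most like gene of another.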

How the data were processed

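The ssDRIP-seq peaks of the 3 sample types were analysed. The authors trimmed reads with Trimmomatic, aligned them to dm6 with Bowtie, split them by strand with SAMtools and ran MACS2 on the pooled replicates. The control of that call was the sample digested with RNase H1 according to the study's methods, and its results name the input too. According to the study, peaks on both strands with a near-complete overlap were removed. The deposited lists of S2 cells (28464 peaks) and late embryos (28961) differ in size from those the study reports. Only the early list (22581) has the reported number. The deposited lists give start, end, length and strand in bp, with no count, score or depth. Starts were converted to counting from 1. Genes came from the RefSeq annotation of dm6, and class took untranslated exons first, then coding exons, then introns, over all transcripts of all genes. Every member is described, with its widest peak of each list and strand and up to 3 of its widest regions held by all lists. The second set of sequences was added after the values were seen. The members and lists were chosen with earlier results of these data known. No comparison was tested across replicates, and Wilson intervals at 95% cover counting error alone. They treat peaks and regions of the same gene as independent, so they can be too narrow. The alternatives changed the overlap, the peaks, the genes and the tract length. The scripts were tested on planted peaks and sequences. Python 3.11.15 and matplotlib 3.10.9 were used. Expression, chromatin marks and read coverage were not analysed here.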

Additional observations from a re-analysis of the deposited data

How the results depend on the processing

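No paired analysis was possible because the lists pool their replicates and no test was run. Of 100 alternatives to 25 results, 79 kept counts and covered percents within 1.5 times the main value, or other percents inside its 95% interval. Without peaks that overlap an opposite-strand peak of the same list by 50% reciprocally, late embryos kept 33 own-strand and 27 other-strand peaks over 5.46% and 3.72% of the genes, and 9.20% of regions were held by all lists. With peaks wider than the median of their list alone, late embryos had 64.3% of peaks on the strand of the gene, 4.26% other-strand cover and polyadenine tracts in 78.6%, early embryos had purine tracts in 76.5%, and 9.92% of regions were held by all lists. A reciprocal overlap of 50% gave 8.64%. Purine tracts of 10 bases lay in 91.0%, 85.1% and 78.6% of peaks in the lists of S2 cells, early and late embryos, and of 15 bases in 36.1%, 43.7% and 33.7%. Polyadenine tracts of 7 bases lay in 48.4% in S2 cells, and of 10 bases in 25.4%, 50.6% and 57.1%. Leaving out lola moved none of the covered percents and other percents past these limits. Without lola, 47, 36 and 36 of the 66, 55 and 52 own-strand peaks were left. Leaving out peaks on transcripts of other genes moved none of the counts, covered percents, strand shares and intron shares. The unknown depth of the lists limits every absence of a peak.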

Other observations

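The dense S2 peaks of lola went on beyond the gene. In the 10 kb upstream of its outermost start site, peaks on the strand of lola covered 41.5% in S2 cells, 15% in early embryos and 11.6% in late embryos, and peaks on the opposite strand covered 49.4%, 17.4% and 13.1%. The 10 kb downstream of the gene held 0 peaks on its strand and 1 on the opposite strand in S2 cells.

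Upstream cover on the strand of the gene was higher in S2 cells than in either embryo list at the other 5 genes too. In the 10 kb upstream of ttk, peaks on its strand covered 20.8% in S2 cells, 2.48% in early embryos and 0% in late embryos. Upstream of bab2 the figures were 35.1%, 11.0% and 2.51%, and upstream of ab 7.84%, 5.79% and 0%. At chinmo and bab1 early embryos had the lowest value, with 11.7%, 0% and 4.38% upstream of chinmo and 10.1%, 2.48% and 3.12% upstream of bab1. On the strand of the gene, S2 cells also had the highest cover in the 10 kb downstream of bab2, bab1 and ttk. This was not so for lola and chinmo, and ab had 0% in every list. Downstream of bab2 the same-strand cover was 43.1%, 15.2% and 14.1%, of bab1 17.3%, 3.34% and 3.84%, and of ttk 4.23%, 2.72% and 0%. On the opposite strand S2 cells had the highest downstream cover at every gene but chinmo, which had none there in any list. Flanks of other long genes were not measured. The 39.3 kb between bab1 and bab2 held 13 peaks on the strand of both genes and 8 on the opposite strand in S2 cells, 5 and 4 in early embryos, and 5 and 5 in late embryos. The widest of them, in S2 cells, measured 1861 bp.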
